A study of Mus musculus with 55 samples.

Results

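The 10 genes described here are used by neurons while they migrate, extend neurites and carry polysialic acid, and they were followed through the maturation and the stimulation of mouse neurons in culture. They were chosen by name, as the genes Dcx, Sox4, Sox11, St8sia2, St8sia4, Ncam1, Trim67, Dpysl3, Gap43 and Stmn2, and they are 10 of the 29684 genes to which a transcript of the deposited tables could be matched. All 10 were found in both count tables and all 10 passed the filter on low counts. Polysialic acid itself was not measured, so that every value below is RNA.

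Newborn neurons express the SoxC transcription factors Sox4 and Sox11, which drive neuronal genes at the end of neurogenesis, and then a set of cytoskeletal proteins of the leading process and the growth cone. Polysialic acid is a long chain of sialic acid that 2 sialyltransferases of the Golgi, ST8SIA2 and ST8SIA4, build on the neural cell adhesion molecule NCAM1. The chain weakens adhesion between cells, is abundant in the developing brain, and in the adult brain is best known from regions where neurons are still born or remodelled.

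The neurons came from cortex and hippocampus of CD1 mouse embryos of both sexes, taken at embryonic day 16 to 17.5, and were grown in Neurobasal-A with B27. In the maturation experiment, 15 samples at 7DIV (days in vitro) and 13 samples at 23DIV were left basal or stimulated for 15 or 180 min. The stimuli there were 55 mM KCl, which depolarizes the membrane, or bicuculline at 50 µM, which blocks inhibitory GABA-A receptors, joined with 2.5 mM of the potassium channel blocker 4-aminopyridine (4APBic). Each of these 10 groups had 3 samples, except the 23DIV 4APBic groups with 2. In the stimuli experiment all 27 samples were at 21DIV, and KCl or bicuculline alone (Bic) was applied for 15, 45 or 180 min with 2 samples per group, against 3 basal samples. A further 4 samples were silenced for 48 h with 1 µM tetrodotoxin (TTX), which blocks sodium channels and with them action potentials. From such silenced cultures TTX was washed out for 15, 45 or 180 min (TTXw, with 3, 2 and 3 samples). The mature stage of the maturation experiment is called 23DIV here as in its sample titles, although the study counted it with its 21DIV cultures. Nothing in the labels says whether samples of a group came from separate cultures, so the p-values measure the spread between samples, which may be technical.

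Libraries of 3′ ends held between 1659722 and 4474968 counts on genes at 7DIV, between 1784170 and 14012872 at 23DIV and between 1177500 and 3909487 in the stimuli experiment. Values are CPM, counts scaled to a common library total by library sizes corrected with the trimmed mean of M values, and cannot be compared between genes as molar levels. The 2 experiments were normalized separately and are compared only as values side by side. The cultures were not purely neuronal. Summed over 9 astrocyte markers, the basal samples held 585 to 859 CPM at 7DIV and 4626 to 5644 CPM at 23DIV, and 10 oligodendrocyte lineage markers went from 471 to 747 CPM up to 2486 to 3273 CPM. The 10 neuron markers summed to 4201 to 4511 CPM and 5425 to 6328 CPM in the same samples, with no drop as a sum. What this sum says of the number of neurons was not tested. Markers of microglia stayed at or under 17.1 CPM and those of endothelium at or under 1.38 CPM in these samples. In such bulk cultures, fewer cells of a type and less RNA per cell cannot be told apart.

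RefSeq promoters (GRCm38.p6, from 250 bases before to 50 after the start of transcription) were given for 6 of the 10 genes, with 7 starts in all, and 4 of them are shown, those of the 2 polysialyltransferases and the 2 that held a match to the motif letters given below. They are the starts of both polysialyltransferases, St8sia2 (chr7:74013633-74013932, minus strand) and St8sia4 (chr1:95667545-95667844, minus strand), of Trim67 (chr8:124792769-124793068, plus strand) and the second listed start of Dcx (chrX:143933075-143933374, minus strand). Capitals mark a match to ACAAAG or ACAATG, letters bound by Sox proteins, which were searched on both strands and do not overlap each other.
St8sia2: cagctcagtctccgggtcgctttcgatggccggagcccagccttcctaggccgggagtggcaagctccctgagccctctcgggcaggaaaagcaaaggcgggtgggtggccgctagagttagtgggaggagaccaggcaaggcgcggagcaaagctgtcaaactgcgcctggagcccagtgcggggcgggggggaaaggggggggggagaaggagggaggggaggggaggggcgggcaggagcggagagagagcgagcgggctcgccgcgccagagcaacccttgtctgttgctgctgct
St8sia4: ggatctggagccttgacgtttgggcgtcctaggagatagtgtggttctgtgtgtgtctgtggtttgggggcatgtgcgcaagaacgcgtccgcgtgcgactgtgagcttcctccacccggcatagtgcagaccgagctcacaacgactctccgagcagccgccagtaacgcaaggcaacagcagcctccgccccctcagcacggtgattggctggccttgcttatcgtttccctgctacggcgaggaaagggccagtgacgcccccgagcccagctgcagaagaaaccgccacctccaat
Trim67: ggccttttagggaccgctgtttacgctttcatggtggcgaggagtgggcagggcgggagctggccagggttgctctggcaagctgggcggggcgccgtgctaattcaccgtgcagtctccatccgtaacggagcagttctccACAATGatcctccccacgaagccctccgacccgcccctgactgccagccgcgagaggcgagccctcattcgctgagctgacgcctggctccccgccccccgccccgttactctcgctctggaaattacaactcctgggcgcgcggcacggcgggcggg
Dcx: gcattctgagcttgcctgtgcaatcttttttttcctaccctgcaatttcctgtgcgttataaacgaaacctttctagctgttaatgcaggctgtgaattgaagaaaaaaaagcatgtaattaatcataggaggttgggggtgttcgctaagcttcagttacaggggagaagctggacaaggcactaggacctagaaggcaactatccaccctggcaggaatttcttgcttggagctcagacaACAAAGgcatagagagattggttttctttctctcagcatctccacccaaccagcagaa
The Dcx start holds ACAAAG at base -8 from the start of transcription and Trim67 holds ACAATG at base -108. Neither string is in the shown promoters of St8sia2 and St8sia4, nor in those of Sox4, Sox11 and the other listed start of Dcx. Of all 32851 promoters of this length, 18.7% hold ACAAAG and 12.6% hold ACAATG, so that a match is common and is given as a description only. The GC content was 68.7% for St8sia2, 67.0% for Trim67, 61.3% for St8sia4 and 44.7% for Dcx, against a median of 52.7% over all promoters.

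All 10 genes were lower in basal cultures at 23DIV than at 7DIV. The question of this comparison was how the resting transcriptome differs between developing and mature neurons. Genes were called at an adjusted p under 0.05 (the quasi-likelihood test of edgeR, adjusted over all genes by Benjamini and Hochberg) and a change of at least 1.5-fold. By this rule 33.1% of the 10510 genes tested were called, and 14.9% were called lower. For all 10 members the 3 samples of one stage did not overlap the 3 of the other. The share of all genes without such overlap is not given, so this describes the members only. The median log2 fold change was -2.48 over the members and 0.01 over all genes tested. The genes were chosen with their fall partly known, so the count describes them and is no independent test of the list.

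The SoxC factors fell 4.74- to 5.04-fold. Sox11 (chr12:27334268-27342718), a factor of newborn neurons, was at 528, 501 and 513 CPM at 7DIV and at 78.3, 118 and 122 CPM at 23DIV. The fall was -2.24 ± 0.16 on the log2 scale (SE of the fit, adjusted p = 2.62e-07). Sox4 (chr13:28948919-28953699), which is also expressed in many progenitors, was at 146, 153 and 97.4 CPM at 7DIV and at 24.96, 32.9 and 19.3 CPM at 23DIV, with a log2 fold change of -2.33 ± 0.23 (adjusted p = 3.55e-06). Picked out after its value was seen, the remaining SoxC gene, Sox12, which was not among the members, was lower too, by a log2 fold change of -1.95 ± 0.24 (adjusted p = 2.96e-05).

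Among the cytoskeletal genes, Dcx and Dpysl3 fell most. Dcx (chrX:143855842-143933396), the microtubule-binding protein doublecortin of migrating neurons, was at 319, 300.4 and 344 CPM at 7DIV and at 26.5, 28.1 and 25.9 CPM at 23DIV. Its samples within a stage lay close together and the stages were 11.8-fold apart, with a log2 fold change of -3.56 ± 0.14 (adjusted p = 1.8e-09). Dpysl3 on chromosome 18, the collapsin response mediator protein CRMP4 of growing axons, fell 8.90-fold from 1751 to 2313 CPM down to 199 to 238 CPM (log2 fold change -3.15 ± 0.14, adjusted p = 5.45e-09). Stmn2 (chr3:8509527-8561604), the microtubule-destabilizing protein SCG10, kept more of its level, at 5440.1 to 5849 CPM and 2213 to 2399 CPM (log2 fold change -1.299 ± 0.098, adjusted p = 3.56e-07). Gap43 (chr16:42248552-42340651), a membrane protein of growth cones that is also kept at some mature synapses, had the smallest fall of the 10. It was at 2211, 2320.5 and 2069 CPM at 7DIV and at 1170.2, 1018 and 965 CPM at 23DIV, 2.05-fold lower (log2 fold change -1.04 ± 0.11, adjusted p = 8.79e-06).

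The enzymes of polysialic acid did not fall alike. St8sia2 (chr7:73939119-74013727), the polysialyltransferase known as the main one of the embryonic brain, was at 1168, 1207 and 1036 CPM at 7DIV and at 46.1, 36.7 and 34.9 CPM at 23DIV, 28.5-fold lower (log2 fold change -4.83 ± 0.15, adjusted p = 2.29e-10). This was the fourth lowest log2 fold change of all genes tested. St8sia4 (chr1:95587682-95667717), the enzyme that persists in the adult brain, was at 61.3, 55.0 and 73.4 CPM and then at 11.5, 8.19 and 10.4 CPM, 6.20-fold lower (log2 fold change -2.63 ± 0.21, adjusted p = 6.3e-07). Their carrier Ncam1 (chr9:49502129-49799393) was at 971, 1208 and 1002 CPM and then at 314, 422 and 276 CPM, 3.09-fold lower (log2 fold change -1.63 ± 0.16, adjusted p = 3.68e-06). The standard errors of these 3 log2 fold changes were between 0.15 and 0.21, and the differences between the genes were not tested.

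Trim67 (chr8:124791317-124834713), a TRIM family ubiquitin ligase of developing axons, was at 102, 122 and 124.6 CPM at 7DIV and at 6.71, 3.03 and 3.19 CPM at 23DIV. It stood next to St8sia2 in the order of log2 fold changes with -4.75 ± 0.26 (adjusted p = 2.48e-08). Only 1 of its 3 samples at 23DIV was above the 5 CPM of the filter, so Trim67 entered the test through the stage where it was high, and with no filter it was called too.

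**Figure D1:**
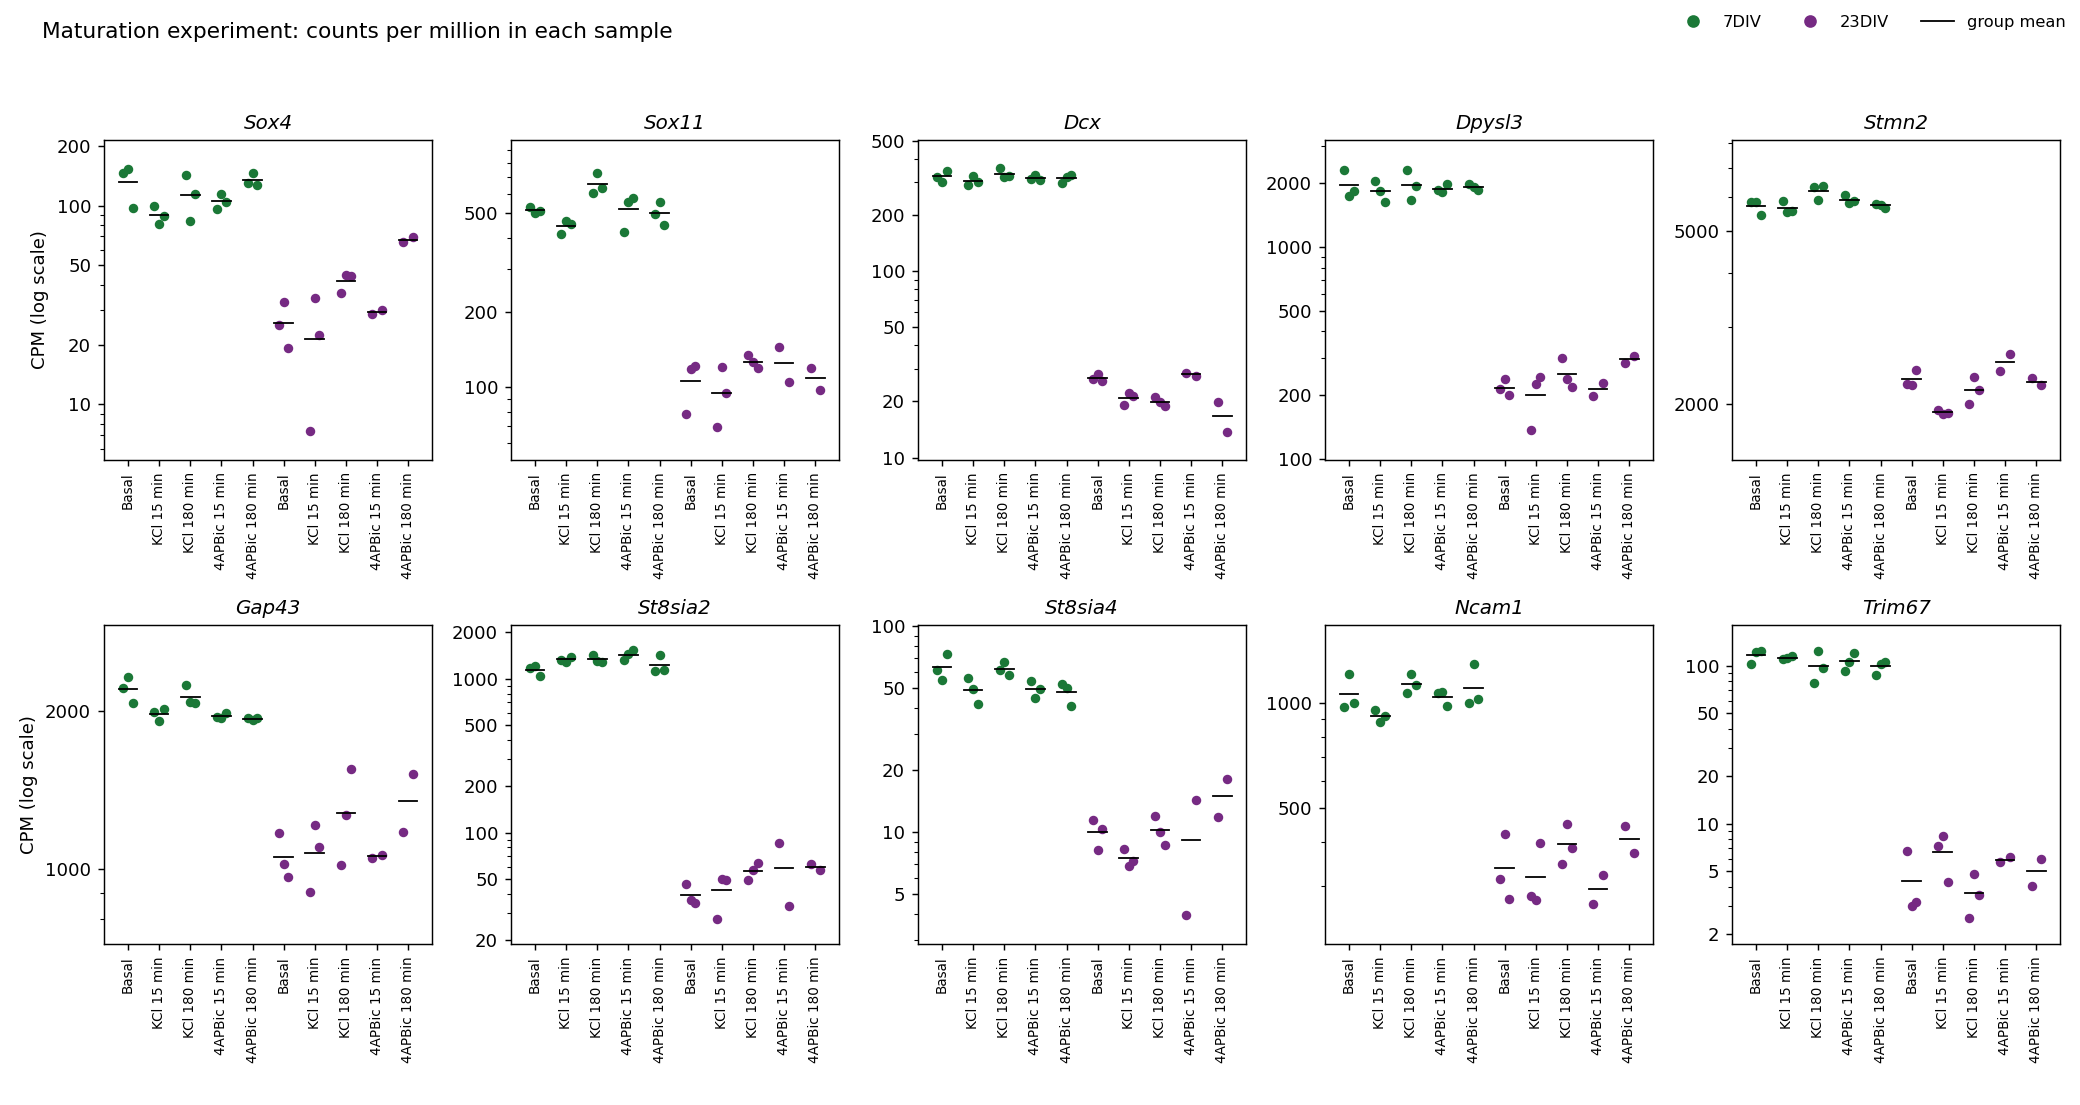
CPM (log scale) of each of the 10 genes in every sample of the maturation experiment, with 7DIV groups in green, 23DIV groups in purple and a bar at each group mean. For every gene all 15 samples at 7DIV lie above all 13 samples at 23DIV. The share of all genes that separate in this way is not given, so this describes the members only.

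The other genes of polysialic acid showed no common direction. Among 5 genes for making, activating and transporting sialic acid, 4 were tested and 2 were called lower, Nans (log2 fold change -0.87 ± 0.27, adjusted p = 0.0189), which makes sialic acid 9-phosphate, and Slc35a1 (log2 fold change -0.97 ± 0.28, adjusted p = 0.0128), which carries the activated sugar into the Golgi. Gne, the first enzyme of the pathway, and Cmas, which activates sialic acid, were at log2 fold changes of 0.01 ± 0.27 and 0.02 ± 0.13 and were not called. Of the 4 other members of the St8sia family, which act on gangliosides or short chains, 3 were tested and St8sia5 rose by a log2 fold change of 1.66 ± 0.20 (adjusted p = 2.52e-05). The lysosomal sialidase Neu1 rose (log2 fold change 0.89 ± 0.25, adjusted p = 0.0121), and of 4 sialidases it was the one tested. Of 3 further carriers or relatives of NCAM1, Nrp2, a second protein that can carry polysialic acid, was lower (log2 fold change -0.66 ± 0.20, adjusted p = 0.0184), while Cadm1 and Ncam2 were not called. Of 8 relatives of Trim67, 3 were tested and 1 was called, its closest paralog Trim9, which rose by 1.62 ± 0.11 on the log2 scale (adjusted p = 1.2e-07).

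A wider list of 28 genes of immature neurons and growth cones, without the members, moved mostly with them. Of the 24 tested, 18 were called lower and 1 higher, with a median log2 fold change of -0.98. Dpysl5, a relative of Dpysl3, fell by a log2 fold change of -2.91 ± 0.12, and the surface protein gene Cd24a by -2.53 ± 0.14. Crmp1, a further relative of Dpysl3, fell by -2.38 ± 0.12 on the log2 scale. Nrn1, the gene of neuritin, rose by a log2 fold change of 1.61 ± 0.22. Dclk1, a relative of Dcx picked out after its value was seen, was at 0.01 ± 0.11 on the log2 scale. Tubb3 stands both in this list and among the neuron markers.

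The stage difference was present in stimulated cultures too. Over KCl and 4APBic at 15 and 180 min, 39 of 40 comparisons of 23DIV with 7DIV were called, all lower. The background in these 4 comparisons was 16.4%, 16.1%, 13.5% and 16.6% of 11746 genes called lower. St8sia2 was between -5.003 ± 0.224 and -4.37 ± 0.26 on the log2 scale, Trim67 between -4.76 ± 0.27 and -4.08 ± 0.24, and Dcx between -4.21 ± 0.15 and -3.50 ± 0.15. The comparison that was not called was Gap43 after 180 min of 4APBic, at -0.52 ± 0.13 (adjusted p = 0.00233, 1.44-fold). There, Gap43 was called without replicate 3 of the 2 samples at 23DIV (log2 fold change -0.72, adjusted p = 0.00135). Sox4 had its smallest stage difference in the same condition, -0.99 ± 0.32 (adjusted p = 0.014), and lost its call without replicate 2 (-0.94, adjusted p = 0.0944) or replicate 3 (-1.04, adjusted p = 0.062). With 1 sample left in that group, its spread was taken to be like that of the other groups.

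**Figure D2:**
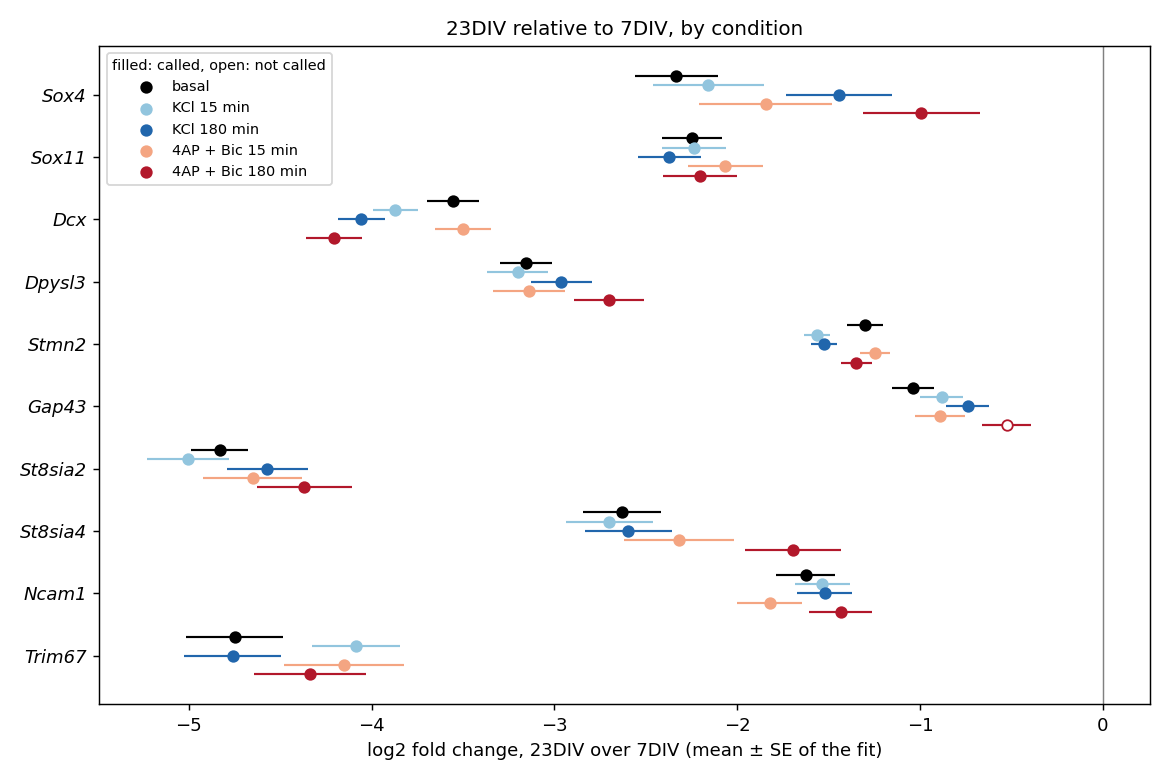
Log2 fold change of 23DIV over 7DIV (x axis, mean ± SE of the fit) for each gene in basal cultures and under each stimulus, where filled points were called and open points were not. All 50 points lie below 0, and 1 of them, Gap43 after 180 min of 4APBic, is open.

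Counts of Ncam1 came from 2 separate 3′ ends. Ncam1 is transcribed from the minus strand. By Gencode annotation of GRCm38, the long transcripts end at chr9:49502136 or 49505048 and code for 848 or 849 codons, and the short one ends at chr9:49517278 and codes for 725 codons. The short form is known as the NCAM of 120 kDa, anchored in the membrane by a lipid, and the long forms as the transmembrane ones. The long end carried the Ncam1 values given above.

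The short end took a larger share at 23DIV. Of the counts at both ends, it held 0.962%, 1.35% and 1.07% in the basal samples at 7DIV and 9.94%, 7.06% and 10.5% at 23DIV, that is 1.12% ± 0.20 and 9.16% ± 1.84 (SD, n = 3 each). These shares rested on 20 to 40 counts of the short end per sample at 7DIV and on 180 to 293 at 23DIV. Over all conditions, the share was between 0.542% and 1.35% in the 15 samples at 7DIV and between 5.99% and 14.5% in the 13 at 23DIV, with no overlap. The rise was not only a fall of the long end. Tested as a feature of its own, which was decided after the shares had been seen, the short end rose from 12.2 ± 3.74 CPM to 32.98 ± 1.42 CPM, by a log2 fold change of 1.49 ± 0.24 (adjusted p = 0.000302). In stimulated cultures it was higher at 23DIV by between 1.54 ± 0.23 and 2.28 ± 0.25 on the log2 scale. The share of astrocyte and oligodendrocyte markers given above rose between the same samples, and their part in the short end was not tested.

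**Figure D3:**
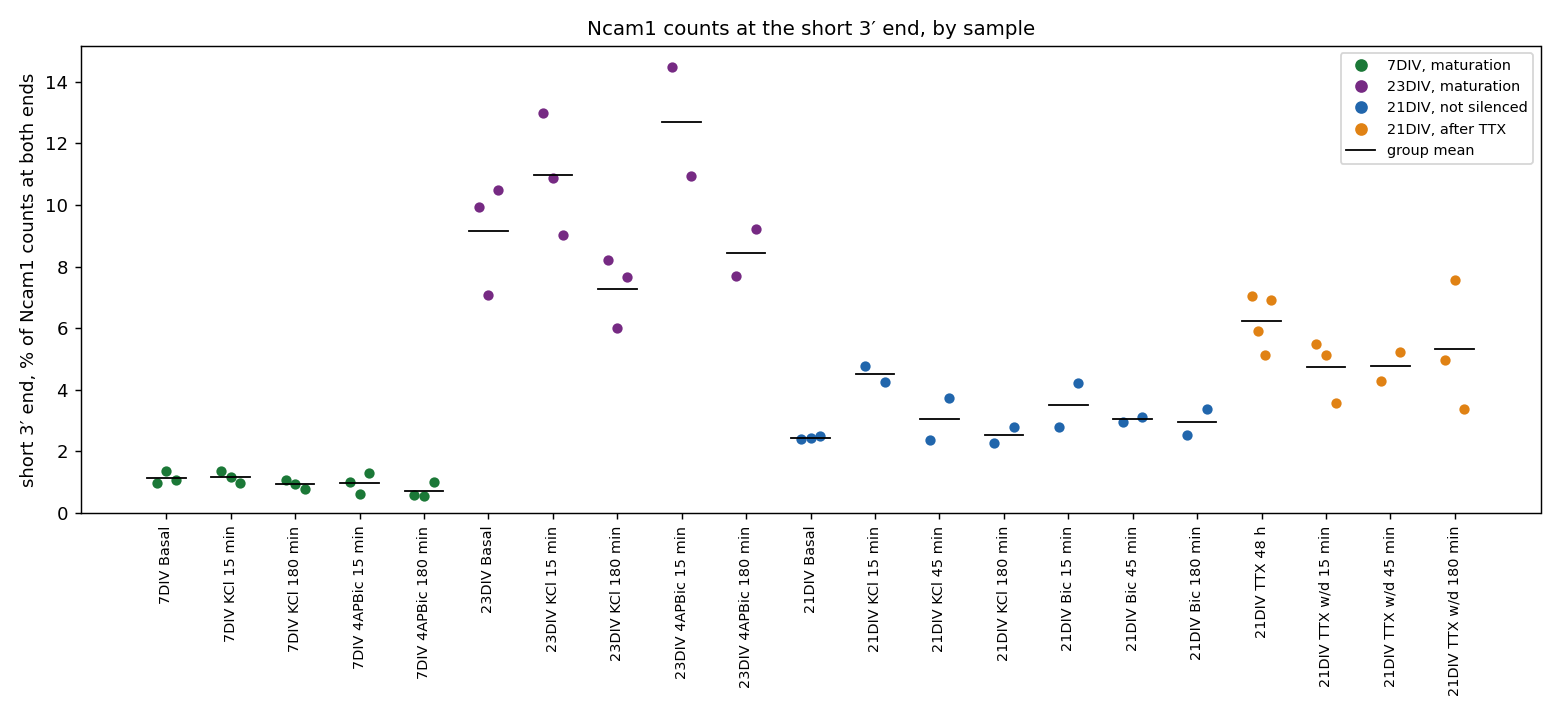
Counts at the short 3′ end of Ncam1 as a percentage of the counts at both 3′ ends (y axis), for every sample of both experiments, with a bar at each group mean. The 7DIV samples lie at or under 1.35%, the 23DIV samples at 5.99% to 14.5%, and the 21DIV basal samples at 2.41% to 2.50%.

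At 7DIV the 10 genes did not respond to stimulation within what the test could call. The comparison asked what depolarization or synaptic activity changes in developing neurons. No member was called in any of 4 comparisons (edgeR, 0 of 40), against 0.0%, 1.98%, 0.0% and 0.0% of all genes for KCl at 15 and 180 min and 4APBic at 15 and 180 min. At an unadjusted p under 0.05, 659, 1473, 793 and 701 of all 11746 genes stood out in these comparisons, and DESeq2 called 0 members as well. The largest log2 fold changes of members were those of Sox4 after 15 min of KCl (-0.55 ± 0.28) and of St8sia4 after 180 min of 4APBic (-0.41 ± 0.22). The activity genes responded after 180 min of KCl, where 3 of 4 (Arc, Egr1, Fos and Npas4) rose.

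At 23DIV, 2 of 40 comparisons were called, both after 180 min of 4APBic, where 14.2% of all genes were called. The other 3 comparisons, KCl at 15 and 180 min and 4APBic at 15 min, called 6.23%, 4.89% and 0.0511% of all genes and no member. With no filter, Sox4 was called higher after 180 min of KCl too (log2 fold change 0.72, edgeR adjusted p = 0.00583). Sox4 rose 2.63-fold, from 24.96, 32.9 and 19.3 CPM in basal cultures to 65.5 and 69.1 CPM. The groups did not overlap, and the log2 fold change was 1.40 ± 0.32 (adjusted p = 0.0029). These stimulated samples stayed under the lowest of the 15 samples at 7DIV, 80.9 CPM. Dcx fell, from 26.5, 28.1 and 25.9 CPM to 19.8 and 13.8 CPM, without overlap (log2 fold change -0.65 ± 0.15, adjusted p = 0.0025). Without replicate 3 of the stimulated samples, the lower one, the log2 fold change of Dcx was -0.45 and not called. The call of Dcx was also lost with counts thinned to the smallest library (-0.38, edgeR adjusted p = 0.299). A fit on the compared groups only lost it too (-0.64, adjusted p = 0.0872). St8sia2 was at 62.2 and 56.7 CPM, above its 3 basal samples, but was not called (log2 fold change 0.61 ± 0.23, adjusted p = 0.0654). It was called with DESeq2 (0.62, adjusted p = 0.044) and, in edgeR, with no filter (0.60, adjusted p = 0.00218) or thinned counts (0.78, adjusted p = 0.0413). It was also called without basal replicate 1 (0.73, adjusted p = 0.0375). Trim67 after 15 min of KCl was at 0.64 ± 0.28 on the log2 scale (adjusted p = 0.16), and was called when the same basal sample was left out (1.07, adjusted p = 0.0137). After 180 min of 4APBic the summed astrocyte markers were at 1754 and 3371 CPM, below the basal 4626 to 5644 CPM, and neuron markers at 4923 and 5338 CPM, and the part of these shifts in the values of Sox4 and Dcx was not tested.

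In the wider list of immature neuron genes, 1 of 25 rose in this condition, Stmn4 (log2 fold change 1.02 ± 0.14), a relative of Stmn2, and 4 fell, with the largest changes in Tubb3 (-1.05 ± 0.17), Marcksl1 (-0.99 ± 0.12) and Neurod1 (-0.93 ± 0.28). Of the relatives of Trim67, Trim46 (-0.98 ± 0.16) and Trim9 (-0.91 ± 0.14) fell, while Trim67 itself was at 0.20 on the log2 scale and not called.

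The response of Dcx to 180 min of 4APBic differed between stages by -0.62 ± 0.18 on the log2 scale, 23DIV minus 7DIV (interaction term, adjusted p = 0.0428, against 4.95% of all genes at an adjusted p under 0.05). It was the one called of 40 interactions of members, and the other 3 pairs of stimulus and time gave 2.03%, 0.775% and 0.00851% of all genes and no member. This call was lost without any one of 6 samples, basal replicate 2 (-0.63) or 3 (-0.57) or stimulated replicate 2 (-0.61) or 3 (-0.59) at 7DIV, or basal replicate 2 (-0.58) or 3 (-0.65) at 23DIV, with adjusted p between 0.0686 and 0.0965. Without stimulated replicate 3 at 23DIV, which left 1 sample in that group, the interaction of Dcx was -0.42 and was not called either. The call of Dcx was also lost with no filter (-0.65, edgeR adjusted p = 0.17) and with counts thinned to the smallest library (-0.31, adjusted p = 0.546). A fit on the compared groups only lost it too (-0.62, adjusted p = 0.102). For Sox4 the interaction was larger, 1.37 ± 0.43, and not called (adjusted p = 0.0567). It was called without basal replicate 4 at 7DIV (1.56, adjusted p = 0.0387) or basal replicate 2 at 23DIV (1.59, adjusted p = 0.0486). It was also called with DESeq2 (1.39, adjusted p = 0.0315) and, in edgeR, with no filter (1.33, adjusted p = 8.98e-05). Thinned counts (1.44, adjusted p = 0.0158) and a fit on the compared groups only (1.37, adjusted p = 0.0119) called it too. With no filter, the interaction of Sox4 with 180 min of KCl was called as well (0.90, edgeR adjusted p = 0.0422). The interaction of Gap43, 0.54 ± 0.18 (adjusted p = 0.0696), was called without basal replicate 1 at 23DIV (0.62, adjusted p = 0.0328).

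In the stimuli experiment the 10 genes at 21DIV lay near or between the stages of the maturation experiment, as values side by side. Dcx had a median of 37.1 CPM over the 15 samples that had not been silenced (range 29.1 to 48.2), against medians of 319 CPM at 7DIV and 21.4 CPM at 23DIV. St8sia2 had a median of 70.3 CPM (58.5 to 97.0), against 1309.8 and 49.4 CPM. Ncam1 had 682 CPM (524 to 758), against 1027 and 347 CPM, and the short end of Ncam1 held 2.41% to 2.50% of its counts in basal samples, against 9.16% ± 1.84 at 23DIV. Gap43 was the exception to this order, with a median of 853 CPM (606 to 1253) below the 1099 CPM at 23DIV.

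**Figure D4:**
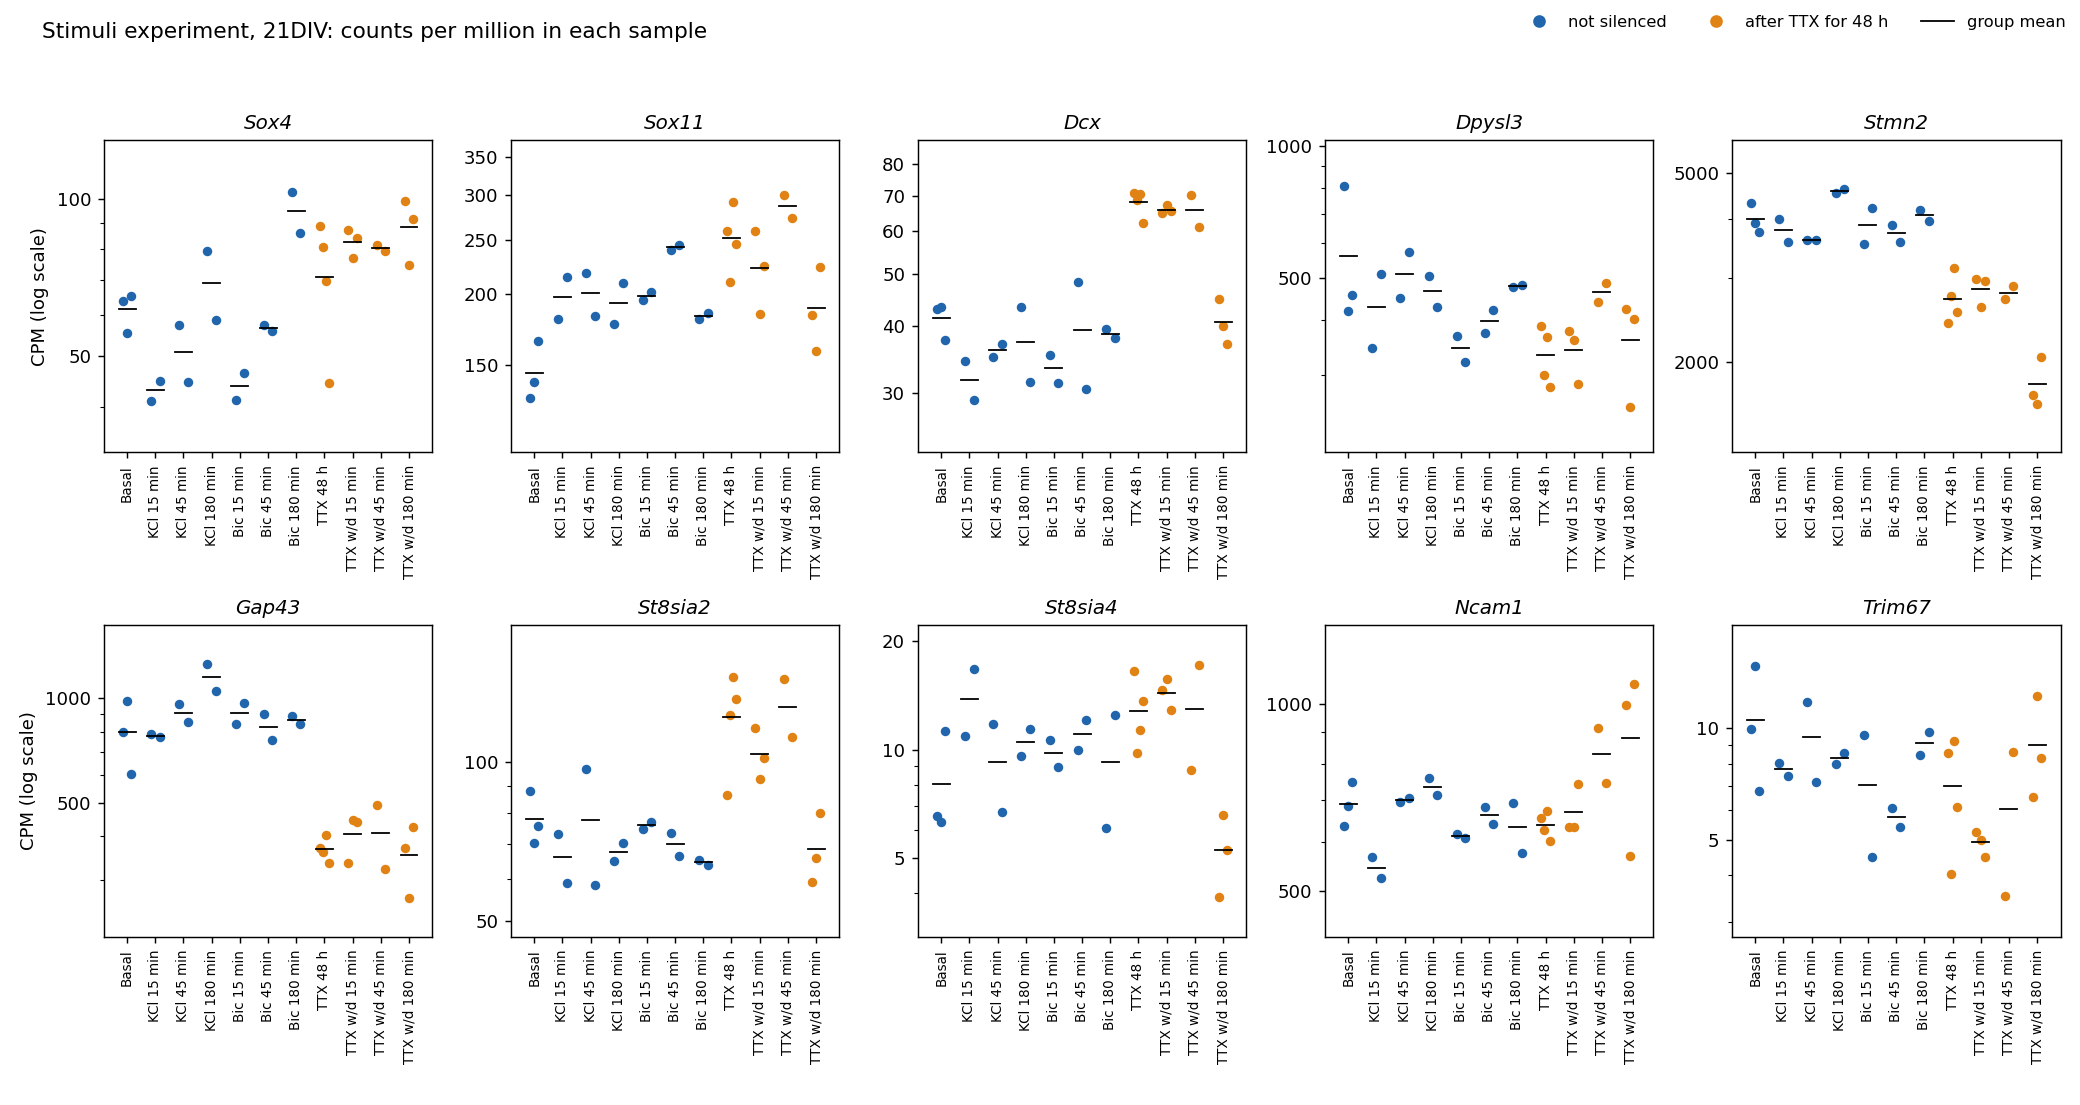
CPM (log scale) of each of the 10 genes in every sample of the stimuli experiment at 21DIV, with samples that had not been silenced in blue, samples after 48 h of TTX in orange and a bar at each group mean. Gap43 and Stmn2 are lower in all 12 orange samples than in any of the 15 blue ones, and Dcx is higher in all 9 orange samples before 180 min of withdrawal. How many of all genes separate so is not given.

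Silencing with TTX for 48 h split the genes. This comparison asked what the loss of action potentials changes in mature cultures. Of the 10 genes 3 rose and 2 fell, against a background of 21.6% of 12027 genes called, 10.8% in each direction. Dcx rose from 43.03, 43.3 and 37.7 CPM in basal samples to 70.8, 68.7, 70.4 and 62.2 CPM, without overlap (log2 fold change 0.71 ± 0.15, adjusted p = 0.00021). Sox11 rose from 131.4, 139.9 and 165 CPM to 259, 211, 292 and 245 CPM, also without overlap (0.79 ± 0.13, adjusted p = 5.79e-06). St8sia2 rose from 88.3, 70.3 and 75.8 CPM to 86.6, 123, 145 and 131.6 CPM (0.64 ± 0.15, adjusted p = 0.00146), where the lowest silenced sample lay inside the basal range. Its change went under 1.5-fold without TTX replicate 3 (0.55) or basal replicate 2 (0.58). St8sia4, at 6.55, 6.29 and 11.3 CPM and then at 16.5, 9.82, 11.4 and 13.7 CPM, was not called (0.69 ± 0.30, adjusted p = 0.0747), and was called without basal replicate 5, the highest one (1.00, adjusted p = 0.0237).

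Gap43 and Dpysl3, both known from the growth cone, were the 2 genes called lower under TTX. Gap43 was at 801, 981 and 606 CPM in basal samples and at 371, 362, 403 and 336 CPM after TTX, 2.17-fold lower and without overlap (log2 fold change -1.12 ± 0.14, adjusted p = 5.58e-08). Over the whole experiment the 12 samples that had been silenced held 266 to 494 CPM of Gap43 and the 15 others 606 to 1253 CPM. Stmn2 was at 4326, 3924 and 3744 CPM and then at 2413, 2757, 3147 and 2551 CPM, passing the adjusted p (8.53e-06) but not the fold, at 1.47-fold lower. It passed both without TTX replicate 3 (-0.63) or basal replicate 5 (-0.60). Dpysl3 was called lower (-0.76 ± 0.17, adjusted p = 0.000505), but the call rested on 1 basal sample. Its basal values were 809, 419 and 458 CPM against 388, 300.3, 367 and 282 CPM after TTX, and without the first sample the log2 fold change was -0.39 (adjusted p = 0.0717). Sox4 (0.18 ± 0.16), Ncam1 (-0.11 ± 0.13) and Trim67 (-0.62 ± 0.33) were not called. Outside the members, the carrier Nrp2 was lower under TTX (-0.82 ± 0.19, edgeR adjusted p = 0.000831), while Cadm1 and Ncam2 were not called. The short end of Ncam1, in contrast with its long end, rose under TTX from 17.3 ± 1.79 to 42.4 ± 5.89 CPM (log2 fold change 1.303 ± 0.186, adjusted p = 5.91e-07), and its share from 2.45% ± 0.05 (SD, n = 3) to 6.24% ± 0.91 (SD, n = 4).

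The silenced cultures also differed in the RNA of cell type markers. All 9 astrocyte markers rose with TTX, from a sum of 2606 to 3203 CPM up to 7369 to 8409 CPM, and 6 of 9 oligodendrocyte lineage markers and 6 of 8 progenitor markers tested rose too. The 10 neuron markers summed to 5479 to 5803 CPM and to 4722 to 5219 CPM, with 2 called lower. The log2 ratio of Xist to Y-linked counts, which depends on the sexes of the embryos pooled, was between 0.94 and 1.23 in basal and between 1.67 and 2.21 in silenced samples. The part of these differences in the changes of the 10 genes was not tested, and silencing and the culture a sample came from cannot be told apart. All 4 activity genes were lower under TTX. In the list of 28 immature neuron genes, 3 of 25 tested rose under TTX and 5 fell, with a median of -0.05 on the log2 scale. Those that rose included the transcription factor genes Neurod2 (1.09 ± 0.13) and Sox12 (0.79 ± 0.25), and the largest falls were those of Nrn1 (-1.66 ± 0.25), Neurod6 (-1.56 ± 0.13) and Dclk1 (-1.56 ± 0.09).

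KCl and Bic at 21DIV called 2 of 60 comparisons of members. The background was 7.22%, 0.765% and 0.765% of all genes for KCl at 15, 45 and 180 min and 3.42%, 7.45% and 0.765% for Bic. Sox11 rose after 45 min of Bic, from 131.4, 139.9 and 165 CPM to 240.1 and 245 CPM, without overlap (log2 fold change 0.74 ± 0.15, adjusted p = 0.000698). In the other 5 conditions its log2 fold change was between 0.34 ± 0.15 and 0.47 ± 0.15, and not called, with the same 3 basal samples in every comparison. After 15 min of KCl it was 0.45 ± 0.15 (adjusted p = 0.0517), and was called without KCl replicate 1 (0.60, adjusted p = 0.04). Dpysl3 was called lower after 15 min of Bic, at 369 and 322 CPM (-0.70 ± 0.21, adjusted p = 0.043). This call rested on the same high basal sample as before, since without it the log2 fold change was -0.31 (adjusted p = 0.504), and it was also lost without either Bic sample (-0.77 and -0.58, adjusted p = 0.192 and 0.312). Sox4 after 180 min of Bic, at 103 and 86.2 CPM, lay above its basal 55.5 to 65.2 CPM and was not called (0.62 ± 0.18, adjusted p = 0.126). It was called in edgeR with no filter (0.64, adjusted p = 0.0366) and in a fit on the compared groups only (0.61, adjusted p = 0.0138). Gap43 after 180 min of KCl was at 0.53 ± 0.17 (adjusted p = 0.128), and was called without basal replicate 2 (0.72, adjusted p = 0.041).

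Withdrawal of TTX was compared with the silenced cultures, as in the study. No member was called after 15 or 45 min (edgeR and DESeq2, 0 of 20), where 0.0% and 0.382% of all genes were called and 757 and 1207 of the 12027 genes had an unadjusted p under 0.05. After 180 min, 4 of 10 were called, all lower, against 14.0% of all genes called and 6.69% called lower. Dcx fell to 44.9, 39.995 and 37.0 CPM, 1.66-fold below the 4 silenced samples and without overlap (log2 fold change -0.73 ± 0.16, adjusted p = 0.000609). These 3 values overlapped the 37.7 to 43.3 CPM of basal cultures. St8sia2 fell to 59.2, 65.9 and 80.0 CPM, below every silenced sample (-0.84 ± 0.17, adjusted p = 0.000241), and 2 of the 3 values lay below its lowest basal sample. St8sia4 fell to 3.90, 6.59 and 5.29 CPM, 2.38-fold (-1.25 ± 0.36, adjusted p = 0.00973), on as few as 6 counts in a sample. Without replicate 1 of the 180 min samples its log2 fold change was -1.08 (adjusted p = 0.0549). Stmn2 fell further, to 1703, 1630.4 and 2046 CPM (-0.60 ± 0.09, adjusted p = 9.75e-06), and went under 1.5-fold without TTX replicate 3 (-0.52) or withdrawal replicate 1 (-0.56) or 2 (-0.54).

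The remaining members took other courses at 180 min of withdrawal. Gap43 stayed low, at 370.2, 266 and 426 CPM, with a log2 fold change of -0.06 ± 0.15 from the silenced samples. Ncam1 was higher on average, at 993, 569 and 1076 CPM against 601 to 673 CPM in the silenced samples. It had an edgeR adjusted p of 0.00786 at 1.37-fold, and was called without the low replicate 2 (0.69, adjusted p = 6.27e-06). Sox11 passed the adjusted p of 0.0179 at a 1.34-fold lower level. Beside both polysialyltransferases, Gne, which opens sialic acid synthesis, was lower (-1.14 ± 0.33, adjusted p = 0.0108), and so were St8sia3 (-0.94 ± 0.14) and St8sia5 (-0.68 ± 0.17). This leaves 1 of 4 genes of sialic acid synthesis and 2 of 3 other St8sia genes called. The carrier Nrp2 was lower too (-0.85 ± 0.24, edgeR adjusted p = 0.00861), while Cadm1 and Ncam2 were not called. Neuron markers fell at the same time, 5 of 10, from 4722 to 5219 CPM in sum to 2790 to 3434 CPM, and the astrocyte markers reached 10813 to 15123 CPM. The part of this shift in the falls of Dcx, St8sia2, St8sia4 and Stmn2 was not tested.

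**Figure D5:**
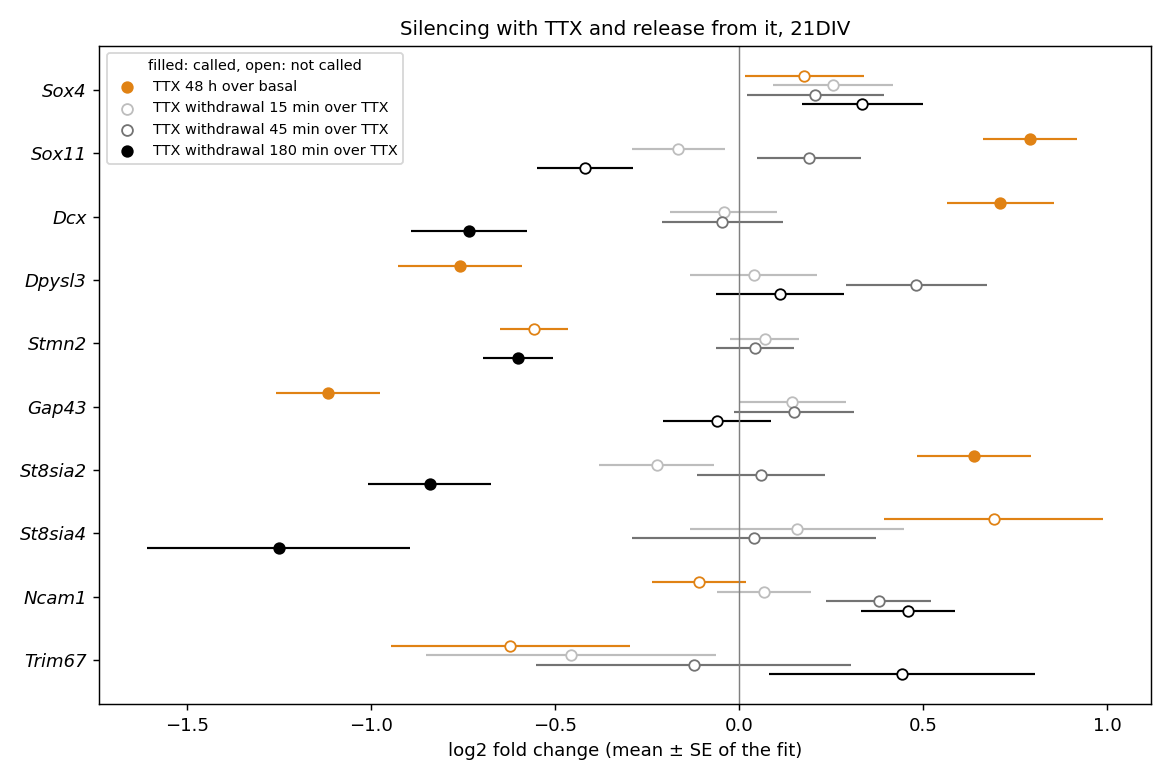
Log2 fold changes (x axis, mean ± SE of the fit) of each gene for 48 h of TTX over basal cultures and for TTX withdrawal of 15, 45 and 180 min over silenced cultures, with filled points called and open points not called. Dcx and St8sia2 are called higher under TTX (0.71 and 0.64) and called lower after 180 min of withdrawal (-0.73 and -0.84), and both sets of values share the silenced samples.

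The genes most like 4 of the members over the 10 groups of the maturation experiment were sought by the root mean square difference of group means, centred per gene, among 8701 genes at a mean log2 CPM of at least 3. For Dcx they were Nrep (0.22), Map6 (0.32), a microtubule-stabilizing protein, and Trim67 (0.38). For St8sia2 they were Trim67 (0.37), Stk32b (0.52) and Dcx (0.55). For Sox11 they were Fnbp1l (0.12), Cd24a (0.16) and Jpt1 (0.18), and for St8sia4 they included Rxfp1 (0.20) and Mex3a (0.22). All values are in log2 CPM, and since the stages dominate the 10 groups, they describe mainly the size of the fall between 7DIV and 23DIV.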

How the data were processed

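RNA was measured in 55 samples of cultured mouse forebrain neurons, 28 in the maturation and 27 in the stimuli experiment. The authors prepared CEL-Seq2 libraries of 3′ ends, aligned them with STAR to mm10, used the End Sequence Analysis Toolkit for counting, and deposited whole-number counts per RefSeq transcript, 1 table per experiment. Tool versions are not given in the sources used here, nor is whether reads were collapsed by molecular identifiers.

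Transcripts were matched to gene symbols by RefSeq accession (80.8% and 80.9% of 97700 and 96722 transcripts), and unmatched transcripts held 18.5% and 19.2% of the counts. Transcripts with a shared 3′ end carry the same counts, so each gene was represented by the transcript with the most counts, which gave 28492 and 28216 genes. Ncam1 transcripts with distinct counts were kept apart by their 3′ ends in GENCODE M21.

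Genes with more than 5 CPM in 2 or more samples were fitted with the quasi-likelihood model of edgeR 4.0.16 (R 4.3.3) after TMM scaling, with p-values adjusted by the Benjamini-Hochberg method over all genes of a comparison. Calls needed an adjusted p under 0.05 and at least a 1.5-fold change, and interactions an adjusted p under 0.05. The basal comparison of stages used its 6 samples. The others came from 1 fit per experiment over all its groups, as many groups held 2 samples, and therefore shared their basal or TTX samples. Alternatives were DESeq2 1.42.0, RLE factors, no filter, counts summed over transcripts, thinned counts, fits on other sets of samples, a replicate block and each replicate left out. The fits were first tested on simulated data.

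The 10 members and all gene lists were chosen with earlier results of these data known. Outside the members, at most the 3 strongest called genes of a list were named in each direction, any gene of sialic acid metabolism, and genes said to be picked out later. Likeness was computed on log2 CPM with a prior count of 2, and 1 gene it found is not reported here. The 48 pairs of replicates differed by 2.17 to 20.2 times the Poisson expectation, so no pair held the same counts within sampling noise. This does not tell separate cultures from repeat libraries of the same RNA. Figures were drawn with matplotlib 3.10.9.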

Additional observations from a re-analysis of the deposited data

Results flagged for a closer look

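The response of Dcx to 180 min of 4APBic differed between the stages, which the interaction term of the fit tested, by -0.62 on the log2 scale (23DIV minus 7DIV, edgeR adjusted p = 0.0428). It was the 1 called of 40 interactions of members, in a comparison where 4.95% of all genes were called. The call was lost without any one of 6 samples, with adjusted p between 0.0686 and 0.0965, and also without stimulated replicate 3 at 23DIV (-0.42). It was lost as well with no filter (-0.65), with counts thinned to the smallest library (-0.31) and in a fit on the compared groups only (-0.62). A search for a sample far from the others was possible only in the 4 samples under TTX, where it found 0 over the 10 genes. Groups of 2 or 3 samples, the basal ones included, were not searched.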

How the results depend on the processing

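Counts are those of called members in a family of comparisons. All 10 basal falls were called under every alternative run. Of 3660 alternative values, 3601 kept their side of the threshold, 29 gained a call and 30 lost one. At 7DIV no alternative called a member. Responses at 23DIV, 2 in all, became 4 with no filter, 1 in a fit on the compared groups only, and 1 to 4 without single replicates. With DESeq2 the response of St8sia2 to 180 min of 4APBic was called as well. With thinned counts it was called and that of Dcx was not. The 1 called interaction of members became 3 calls with DESeq2, 2 with no filter, 2 with counts thinned to the smallest library, and 0 to 2 without single replicates. Dcx itself lost its call with no filter, with thinned counts and in the fit on the compared groups only. The interaction of Sox4 with 180 min of 4APBic was called in each of these and with DESeq2. That of St8sia4 was called with DESeq2 and with thinned counts. The 2 responses to KCl and bicuculline at 21DIV became 1 with DESeq2, 1 with RLE factors, 1 with counts summed over transcripts, and 1 to 3 without single replicates. Sox4 with 180 min of bicuculline was called in addition with no filter (0.64) and in the fit on the compared groups only (0.61). The 4 calls of TTX withdrawal ranged from 2 to 4 without single replicates, the 5 of TTX from 4 to 7, and the 39 of stage under stimulation from 38 to 39. For the Ncam1 transcripts by 3' end, the rise in the share of the short end, 8.03 percentage points, was 3.005 points with all transcripts summed, which counts the long end several times, and 7.37 to 9.08 points without single replicates. Same-numbered samples did not deviate together (median r under 0.01, with pairs from -0.247 to 0.114 in the maturation experiment). Whether they came from a shared culture cannot be told from this. With the replicate number as a block, calls were 2 at 23DIV, 1 interaction, 5 for TTX, 2 for KCl and bicuculline and 4 for withdrawal. Under this block St8sia2 with TTX (0.56) and Dpysl3 with 15 min of bicuculline (-0.77) lost their calls, while Stmn2 with TTX (-0.63) and Sox4 with 180 min of bicuculline (0.75) gained one. Depth limits St8sia4 and Trim67 at 21DIV and 23DIV, which rest on few counts per sample. With Pearson's correlation in place of the root mean square difference, 2 of the 12 genes found most alike were shared.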
